A study of Mus musculus with 6 samples.

Results

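The genes described here are 10 members of the MHC class I antigen presentation pathway: B2m, H2-K1, H2-D1, H2-Q7, Tap1, Tap2, Tapbp, Psmb8, Psmb9 and Nlrc5. They were taken by symbol from the 31053 genes of the count tables, as a list set with earlier results of these data known, and all 10 were found and detected. Their levels were compared between old and young mice within each treatment, in every class of cells recognised by marker genes in the soleus, a postural hindlimb muscle.

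CD45+ DAPI- cells, that is, living cells carrying the pan-leukocyte surface protein, were sorted from pooled soleus muscles of male C57BL/6 mice and sequenced as single cells. There were 6 libraries, 1 for each combination of age and treatment: old (20 to 22 months) and young (4 to 5 months) mice kept ambulatory (control), unloaded by hindlimb suspension for 14 days (HU), or unloaded in the same way and then left to walk for 4 days (4-day reload). Each library pooled muscles of several mice: 20 old and 10 young for control, 10 old and 8 young for HU, and 10 old and 10 young for reload. The paper names the University of Utah as the source of the young mice and the National Institute on Aging for the old. Age and source of the mice therefore cannot be told apart. A pool was 1 sample, so within a treatment old and young had no replicate, and every interval given for a ratio is an exact 95% interval that covers counting error only. The control libraries came from 1 sequencing run and the HU and reload libraries from another.

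MHC class I molecules show peptides from inside the cell to CD8 T cells and to natural killer (NK) cells. A peptide is cut from a cytosolic protein by the proteasome, in which interferon can replace constitutive catalytic subunits by Psmb8 and Psmb9. It is pumped into the endoplasmic reticulum by the transporter formed by Tap1 and Tap2, and it is loaded with the help of tapasin, the product of Tapbp, onto a heavy chain paired with beta 2 microglobulin, the product of B2m. H2-K1 and H2-D1 encode classical heavy chains and H2-Q7 a non-classical one, and Nlrc5 is the transactivator of this gene set, many of whose members respond to interferon. Macrophages present through this route and also take up and clear damaged fibres when muscle is reloaded.

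All positions are on mm10 with GENCODE vM21. B2m (ENSMUSG00000060802) lies at chr2:122147686-122153083 and Nlrc5 (ENSMUSG00000074151) at chr8:94434356-94527272. The other 8 lie on chromosome 17, within the major histocompatibility complex: Tapbp (ENSMUSG00000024308) at chr17:33915899-33929292, H2-K1 (ENSMUSG00000061232) at chr17:33996017-34000347 on the minus strand, Psmb9 (ENSMUSG00000096727) at chr17:34181987-34187764 on the minus strand, Tap1 (ENSMUSG00000037321) at chr17:34187553-34197225, Psmb8 (ENSMUSG00000024338) at chr17:34197721-34201454, Tap2 (ENSMUSG00000024339) at chr17:34203527-34216321, H2-D1 (ENSMUSG00000073411) at chr17:35262730-35267499 and H2-Q7 (ENSMUSG00000060550) at chr17:35439155-35443773. Tap1 and Psmb9 overlap head to head on opposite strands. The heavy chain genes are close relatives in sequence, and reads that fit more than 1 of them equally well are not counted, so a level of H2-K1, H2-D1 or H2-Q7, and above all of H2-Q7 beside its neighbour H2-Q6, is uncertain to the extent that reads were lost or shared.

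The promoters of the heavy chain genes, of Tap1 and of Tapbp are shown because these are the 5 members that passed the test of reload against HU in macrophages, given further on. Each run holds 300 bases of the RefSeq sequence (GRCm38.p6), 250 before and 50 from the start site, read 5′ to 3′ on the strand of the gene. A window was held for 8 of the 10 members, and Tap2 and Nlrc5 had none. Capitals mark matches, on either strand, to any of 3 short words: GGGGATTCC, part of the enhancer that binds NF-kappa B proteins, TTTCACTTC, the core of the interferon response element, and CCAATCA, the kind of box bound by NF-Y. None of the words overlaps another in these windows.
H2-K1, chr17:34000298-34000597, minus strand: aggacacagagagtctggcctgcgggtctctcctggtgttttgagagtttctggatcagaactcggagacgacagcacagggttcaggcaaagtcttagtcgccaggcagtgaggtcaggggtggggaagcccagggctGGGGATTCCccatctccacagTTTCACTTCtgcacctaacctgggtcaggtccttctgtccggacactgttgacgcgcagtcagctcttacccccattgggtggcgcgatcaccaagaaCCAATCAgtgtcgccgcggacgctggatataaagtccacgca
H2-D1, chr17:35262844-35263143, plus strand: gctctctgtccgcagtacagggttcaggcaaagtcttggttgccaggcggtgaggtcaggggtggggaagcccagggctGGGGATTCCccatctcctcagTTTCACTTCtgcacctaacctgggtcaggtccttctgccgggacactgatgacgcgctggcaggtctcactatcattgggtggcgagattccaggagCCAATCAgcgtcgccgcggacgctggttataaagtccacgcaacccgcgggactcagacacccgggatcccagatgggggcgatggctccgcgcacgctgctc
H2-Q7, chr17:35438905-35439204, plus strand: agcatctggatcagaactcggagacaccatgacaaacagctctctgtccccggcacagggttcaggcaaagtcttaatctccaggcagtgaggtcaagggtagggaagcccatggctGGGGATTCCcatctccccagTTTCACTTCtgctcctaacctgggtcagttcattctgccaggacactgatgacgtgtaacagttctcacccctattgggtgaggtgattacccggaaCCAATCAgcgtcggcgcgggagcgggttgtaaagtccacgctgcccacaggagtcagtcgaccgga
Tap1, chr17:34187306-34187605, plus strand: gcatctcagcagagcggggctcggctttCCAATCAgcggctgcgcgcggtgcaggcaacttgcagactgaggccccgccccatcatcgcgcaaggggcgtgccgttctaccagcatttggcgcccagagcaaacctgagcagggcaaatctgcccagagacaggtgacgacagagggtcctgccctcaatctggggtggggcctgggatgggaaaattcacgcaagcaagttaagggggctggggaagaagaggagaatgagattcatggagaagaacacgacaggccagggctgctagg
Tapbp, chr17:33919228-33919527, plus strand: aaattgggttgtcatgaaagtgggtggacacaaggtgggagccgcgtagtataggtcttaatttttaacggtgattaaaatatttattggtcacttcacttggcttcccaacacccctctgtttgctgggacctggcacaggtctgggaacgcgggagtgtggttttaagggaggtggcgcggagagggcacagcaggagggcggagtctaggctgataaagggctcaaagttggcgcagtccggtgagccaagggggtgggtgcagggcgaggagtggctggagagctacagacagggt

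The 3 heavy chain promoters held all 3 words in the same order. Counted from 1 at the 5′ end of the window, GGGGATTCC began at base 140 in H2-K1, 80 in H2-D1 and 118 in H2-Q7, and TTTCACTTC at 161, 101 and 138. A second start site of H2-K1 gave a window with the same words at 126, 147 and 245. Among all 32851 promoter windows of this length, 0.25% held GGGGATTCC, 0.505% held TTTCACTTC and 7.82% held CCAATCA. Because the heavy chain genes are close relatives in sequence, their matches are not independent of each other. The Tap1 window held only the CCAAT word, at base 29. It shares 275 identical bases (chr17:34187306-34187580) with the window of Psmb9, which runs the other way. None of the words occurred in the window of Tapbp, nor in those of B2m and Psmb8. The windows of Tapbp, H2-D1, Psmb8 and Psmb9 lie inside the gene spans given above, so the upstream ends of those spans were not searched. A match describes the letters only.

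The libraries held between 5782054 and 22749375 UMIs (molecules counted once each), and 12220 of 15467 barcodes were kept as cells, of which 79.0% were given to a class by their markers. A further 1225 cells had enough markers but led the next class by only 1 marker. The median UMIs per kept cell were 3900.5 in old and 4510 in young control, 2539 in old and 2548 in young HU, and 5939 in old and 7883 in young reload muscle, and each library shared between 42 and 80 barcodes with another. Ptprc, which encodes the sorted CD45 protein, was detected in each hematopoietic class shown. It had 0 UMIs in the fibroblast-like cells of both HU libraries and 3 in the endothelial-like cells of each, and these 2 classes reached 20 cells in the HU libraries alone. All cell classes named here are assignments by marker genes and carry the sense of "-like". Levels are counts per 1e+06 UMIs of a class in a library (CPM). Fewer cells of a subtype and less RNA per cell cannot be told apart in such sums.

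**Figure D1:**
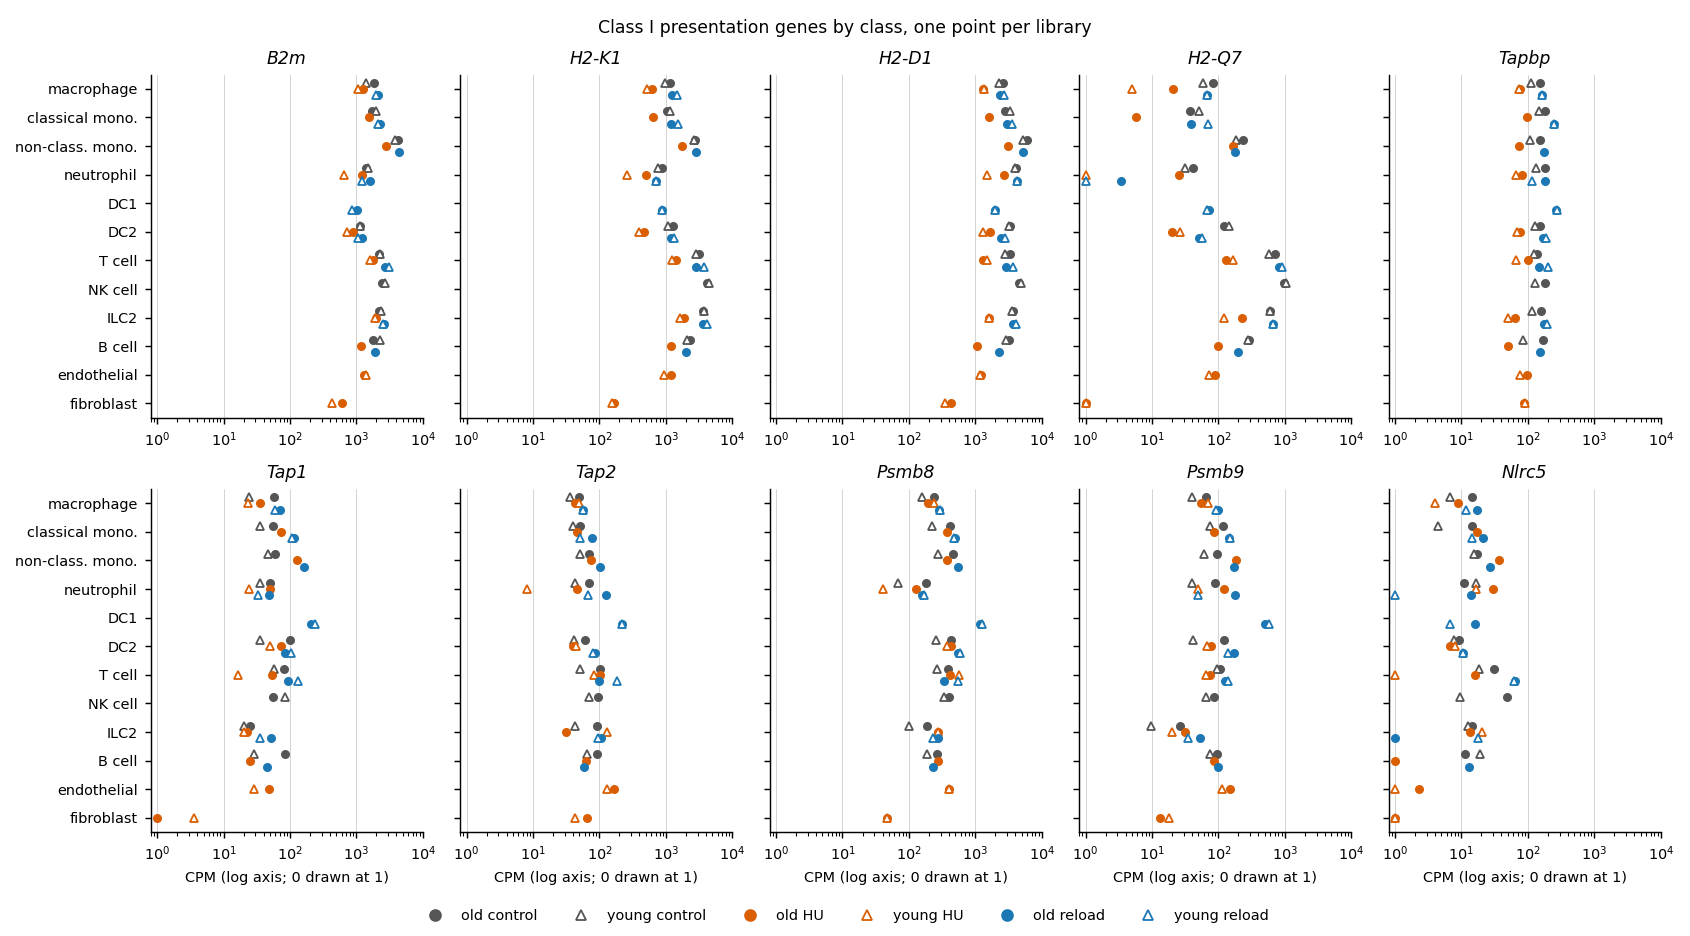
Levels of the 10 members (CPM, log axis, 0 drawn at 1) in the 12 classes, 1 point per library with at least 20 cells of the class (DC1 and DC2, type 1 and type 2 dendritic cells; ILC2, type 2 innate lymphoid cells). Type 1 dendritic cells sit above other classes for Psmb8 and Psmb9, at 1221 and 535 CPM on average, but near the low end for B2m and H2-K1.

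The members did not share 1 order over the cell classes. Each mean covers only the libraries with at least 20 cells of the class, so a rank mixes class with treatment. NK cells had control libraries alone, and endothelial-like and fibroblast-like cells had HU libraries alone. B2m was highest in non-classical monocytes, at 3801 ± 692 CPM (SD, n = 4 libraries), followed by NK cells at 2555 ± 153 CPM (n = 2) and T cells at 2274 ± 543 CPM (n = 6). It was lowest in type 1 dendritic cells (945 ± 105 CPM, n = 2) and fibroblast-like cells (518 ± 126 CPM, n = 2). H2-K1 was highest in NK cells (4339 ± 171 CPM), type 2 innate lymphoid cells (3089 ± 1063 CPM, n = 6) and T cells (2536 ± 985 CPM). H2-D1 led in non-classical monocytes (4876 ± 1269 CPM) and NK cells (4670 ± 272 CPM), followed by neutrophils (3445 ± 1100 CPM, n = 6), although neutrophils were 11th of 12 for H2-K1 (632 ± 216 CPM). H2-Q7 was concentrated in lymphoid cells. It averaged 1008 ± 57.3 CPM in NK cells and 550 ± 331 CPM in T cells, against 50.4 ± 30.4 CPM in macrophages (n = 6) and 16.9 ± 18.2 CPM in neutrophils.

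The genes that make and load the peptide had a different leader. Type 1 dendritic cells, which specialise in cross-presentation to CD8 T cells, had the highest mean of Tap1 (221 ± 19.5 CPM), Tap2 (219 ± 0.9 CPM), Tapbp (268 ± 6.0 CPM), Psmb8 (1221 ± 72.7 CPM) and Psmb9 (535 ± 50.6 CPM). These values came from 58 old and 92 young reload cells, since no other library had 20 such cells. Psmb8 stood at 1169 CPM in the old and 1272 CPM in the young reload library. The class next in order, type 2 dendritic cells, had 251 to 576 CPM over 6 libraries, so the ranges did not overlap. Endothelial-like cells came second for Tap2 (150 ± 25.4 CPM, n = 2) and Psmb9 (132 ± 25.4 CPM) but 8th for B2m. That B2m rank did not hold within shared libraries. In the 2 HU libraries macrophages, 7th by mean, were below endothelial-like cells (mean log2 difference -0.22). Nlrc5, the transactivator, was low throughout, with its highest mean in T cells (31.7 ± 25.9 CPM) and 0 to 64.0 CPM over their 6 libraries. The young HU library had 0 Nlrc5 UMIs in T cells, which allows up to 49.2 CPM.

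Most neighbours in these orders could not be separated. The ranges over libraries were apart for 1 to 3 of the 11 neighbouring pairs of each gene. Classes were compared within the libraries that held both, by an exact two-sided permutation test that flips signs over libraries. None of the 110 neighbouring pairs passed after adjustment over all of them (lowest adjusted p = 0.98). The smallest p that 6 shared libraries allow is 0.031 before adjustment, so no pair could have passed.

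**Figure D2:**
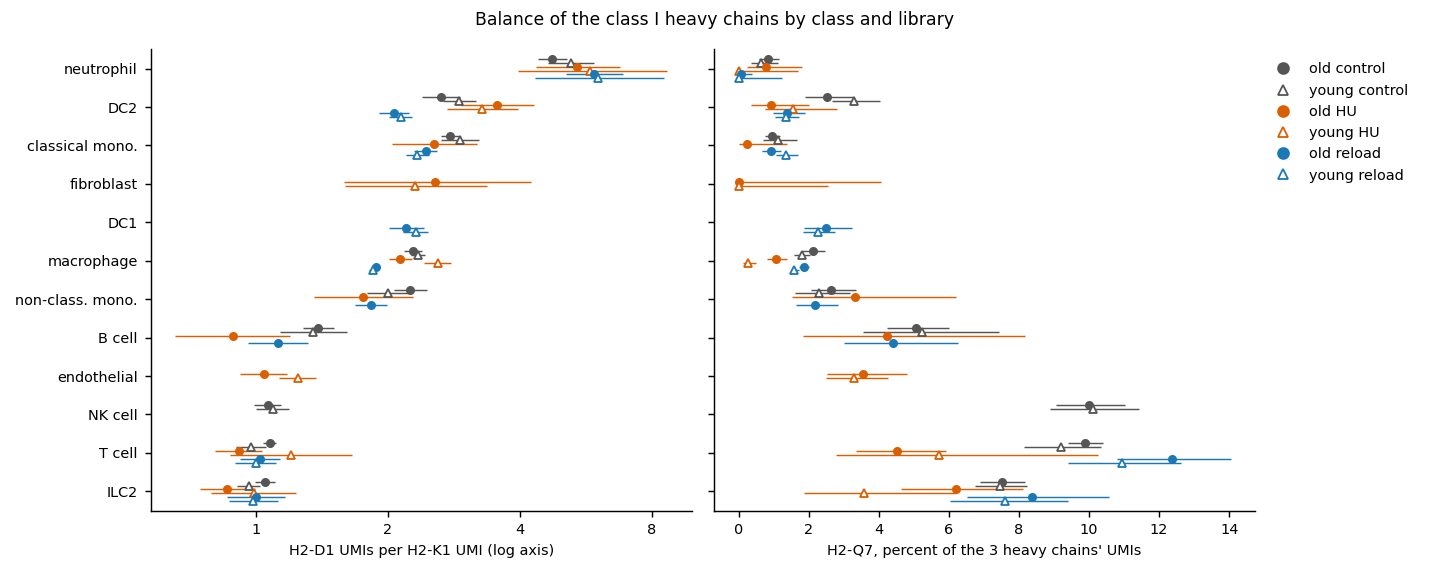
H2-D1 UMIs per H2-K1 UMI (left) and H2-Q7 as a percentage of the 3 heavy chains' UMIs (right) in each class, 1 point per library with at least 20 cells and lines for exact 95% intervals. Neutrophils lie at 4.74 to 6.02 H2-D1 UMIs per H2-K1 UMI, and the lymphoid classes near 1 with the largest H2-Q7 percentages.

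The balance between the heavy chains separated myeloid from lymphoid cells in every library. Since UMIs of these genes are set against each other, only the change of this ratio between classes is read. Neutrophils held 4.74 and 5.24 H2-D1 UMIs per H2-K1 UMI in old and young control, 5.41 and 5.78 in old and young HU, and 5.91 and 6.02 in old and young reload muscle. Macrophages held 2.28 and 2.34 in old and young control, 2.14 and 2.60 in old and young HU, and 1.88 and 1.84 in old and young reload muscle. Type 2 dendritic cells (2.06 to 3.55), classical monocytes (2.34 to 2.92) and non-classical monocytes (1.76 to 2.25) lay in or near the macrophage range. Type 1 dendritic cells (2.20 to 2.31) lay within it, and so did fibroblast-like cells (2.30 to 2.56), which are not myeloid. T cells (0.91 to 1.20), NK cells (1.06 to 1.09), type 2 innate lymphoid cells (0.86 to 1.05), B cells (0.89 to 1.39) and endothelial-like cells (1.04 to 1.24) lay lower, and their ranges did not overlap those of the myeloid classes. H2-Q7 made up 4.52 to 12.4% of the UMIs of the 3 genes in T cells and 10.0 to 10.1% in NK cells, against 0.27 to 2.13% in macrophages and 0 to 0.84% in neutrophils. Classes were defined without these genes. No test was made of this ratio.

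In control muscle, all 10 members were higher in old than in young macrophages. The largest ratios belonged to Tap1, a transporter subunit, and Nlrc5, the transactivator. Tap1 was 56.7 CPM in old and 24.1 CPM in young control macrophages, a log2 ratio of 1.24 (95% interval 0.84 to 1.63). Nlrc5 was 14.2 CPM in old and 6.77 CPM in young (1.06, 0.27 to 1.86). The inducible proteasome subunits followed. Psmb9 was 65.9 CPM in old and 40.4 CPM in young (0.71, 0.37 to 1.04), and Psmb8 was 238 CPM in old and 156 CPM in young (0.61, 0.44 to 0.78). Tap2 stood at 49.8 CPM in old and 35.5 CPM in young (0.49, 0.11 to 0.86). These 5 genes belong to peptide supply and to its control.

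Those of the complex itself differed less. H2-Q7 was 81.5 CPM in old and 59.3 CPM in young control macrophages (0.46, 0.17 to 0.75), and Tapbp, the loading chaperone, 150 CPM in old and 113 CPM in young (0.41, 0.20 to 0.62). B2m, the light chain, was 1811 CPM in old and 1368 CPM in young (0.40, 0.34 to 0.46). The classical heavy chains had the lowest ratios of the members, though their intervals also lay above 0. H2-K1 was 1143 CPM in old and 972 CPM in young (0.23, 0.16 to 0.31), and H2-D1 was 2605 CPM in old and 2273 CPM in young (0.20, 0.15 to 0.24). By a rule of size (a log2 ratio of at least 0.32, that is 1.25-fold, with at least 20 UMIs in the pair), 8 of the 10 members were higher in old, against 26.5% of all 9269 genes measured in this pair. Their median log2 ratio was 0.47, against 0.06 over all genes.

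Other values moved with this comparison. Hspa1a, a heat-shock gene, stood at 714 CPM in old and 4779 CPM in young control macrophages, and 7 of 334 old and 239 of 499 young macrophages lay in a cluster led by Hspa1b. Without that cluster the members' median log2 ratio was 0.56. The 8 neutrophil markers, all detected, summed to 1158 CPM in old and 178 CPM in young control macrophages, and the 8 B-cell markers to 192 CPM in old and 50.9 CPM in young. The part of this RNA in the members' ratios was not tested. Neutrophils themselves held less Psmb8 than macrophages in control muscle (179 CPM in old, 69.1 CPM in young), but more Tapbp (180 CPM in old, 133 CPM in young) and more H2-D1 (4112 CPM in old, 3958 CPM in young). When mean UMIs per cell were compared with no scaling for depth, the median of the members was -0.011 and that of all genes -0.42. Leaving out this scaling shifts every gene of the pair by the same amount. The gap between the members and other genes could therefore not change. Within macrophages of the cluster led by Fcna and Lyve1 (157 old and 74 young cells), genes known from resident macrophages, the median of the members was 0.64, and within the cluster led by Cx3cr1 (68 old and 55 young cells) it was 0.41.

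**Figure D3:**
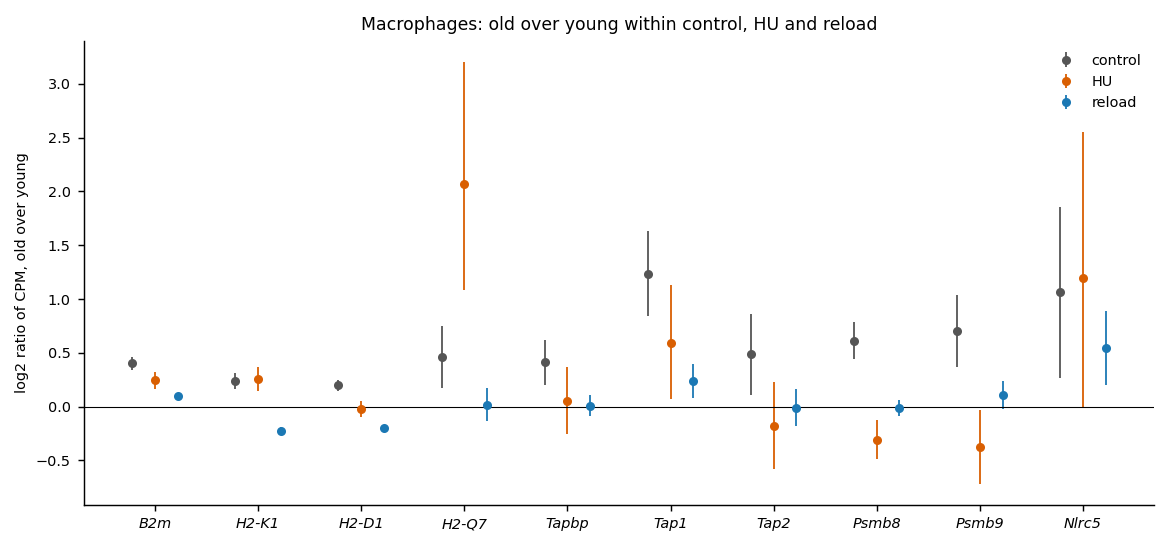
Log2 ratio of old over young macrophages for each member within control, HU and 4-day reload muscle, with exact 95% intervals for counting error. All 10 intervals lie above 0 in control, the members part in both directions in HU, and most lie near 0 after reload.

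In HU muscle the members split. H2-Q7 was 20.6 CPM in old and 4.92 CPM in young HU macrophages (55 and 10 UMIs), a log2 ratio of 2.07 (1.08 to 3.20). Tap1 was 34.9 CPM in old and 23.1 CPM in young (0.59, 0.07 to 1.13), and Nlrc5 9.01 CPM in old and 3.94 CPM in young (1.19, -0.01 to 2.56). Only these 3 met the rule of size as higher in old. The proteasome subunits ran the other way. Psmb9 was 54.0 CPM in old and 69.9 CPM in young (-0.37, -0.72 to -0.03) and met the rule as lower, and Psmb8 was 191 CPM in old and 237 CPM in young (-0.31, -0.49 to -0.13). Within the Fcna and Lyve1 cluster Psmb9 was at -0.43 and Psmb8 at -0.55, but within the Cx3cr1 cluster they were at 0.25 and 0.11. B2m was 1258 CPM in old and 1062 CPM in young (0.24), H2-K1 611 CPM in old and 511 CPM in young (0.26), and H2-D1 1305 CPM in old and 1326 CPM in young (-0.02). Tapbp was 76.2 CPM in old and 73.4 CPM in young (0.05) and Tap2 was 43.1 CPM in old and 48.7 CPM in young (-0.18). Over all genes, 23.3% met the rule as higher and 38.0% as lower, so 3 higher of 10 members were near the first share and 1 lower was below the second. The members' median was 0.15, against -0.14 over all genes. Neutrophil markers summed to 397 CPM in old and 36.4 CPM in young HU macrophages, with Cxcr2 at 0 in young, and Hspa1a was 293 CPM in old and 1676 CPM in young.

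After 4 days of reload, old and young macrophages were close for most members. The classical heavy chains were slightly lower in old: H2-K1 stood at 1254 CPM in old and 1466 CPM in young reload macrophages (-0.23, -0.26 to -0.19). H2-D1 stood at 2354 CPM in old and 2703 CPM in young (-0.20, -0.23 to -0.17). B2m was 2076 CPM in old and 1939 CPM in young (0.10). In these sums the light chain and the classical heavy chains thus differed in opposite directions, but not within each cluster. Within the Cx3cr1 cluster (305 old and 316 young cells) B2m was at 0.29, H2-K1 at 0.10 and H2-D1 at 0.03. Within the Fcna and Lyve1 cluster (132 old and 51 young cells) B2m was at 0.03, H2-K1 at -0.52 and H2-D1 at -0.35. Nlrc5 alone met the rule of size, at 17.0 CPM in old and 11.7 CPM in young (0.54, 0.20 to 0.89), and Tap1 came next at 70.5 CPM in old and 59.8 CPM in young (0.24, 0.08 to 0.39). H2-Q7 (68.4 CPM in old, 67.6 CPM in young), Tapbp (165 CPM in old, 164 CPM in young), Tap2 (56.5 CPM in old, 56.8 CPM in young), Psmb8 (286 CPM in old, 289 CPM in young) and Psmb9 (99.4 CPM in old, 92.4 CPM in young) had log2 ratios between -0.01 and 0.10. Over all genes 17.8% met the rule as higher, and the median of the members and that of all genes were both 0.01. Neutrophil markers summed to 90.1 CPM in old and 135 CPM in young reload macrophages.

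Tested over the 3 treatments as pairs of pools, no member was called as different with age in macrophages. With edgeR's quasi-likelihood test on the 6 sums, treatment as a block and Benjamini-Hochberg adjustment over 9940 genes, 0 of 10 members and 0% of all genes were called (lowest adjusted p among members 0.91). At an unadjusted edgeR p under 0.05 there were 2 members, Nlrc5 (log2 fold change 0.83, SE 0.25, unadjusted p = 0.014) and Tap1 (0.68, SE 0.22, unadjusted p = 0.018), each higher in the old pool of all 3 pairs, beside 276 higher and 161 lower genes in all. DESeq2 called 0 members and 4 genes. The same model called 0 members in type 2 dendritic cells, where 0.0416% of genes were called, and 0 in neutrophils, where 0.15% were. In neutrophils Psmb9 had a log2 fold change of 1.33 (unadjusted p = 0.0042) and Psmb8 one of 1.01 (unadjusted p = 0.023), with adjusted p of 0.38 or more. The fit left 2 residual degrees of freedom. The error behind these p-values holds the spread between pools together with any change of the age difference with treatment, and the 2 cannot be told apart.

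**Figure D4:**
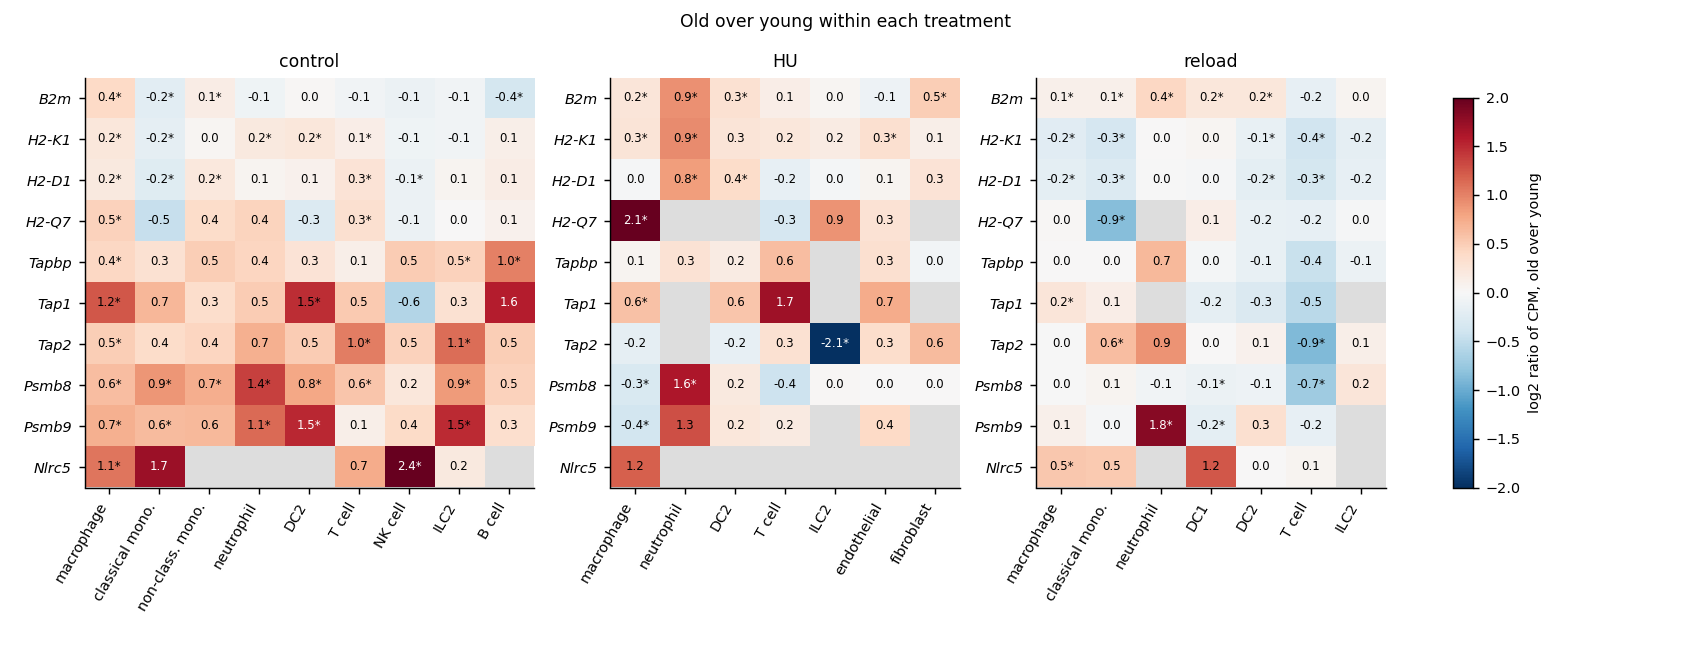
Log2 ratio of old over young for each member (rows) in each class and treatment with at least 20 cells in both libraries. Stars mark intervals that exclude 0, grey marks pairs under 20 UMIs, and colours stop at -2 and 2. Psmb8 and Psmb9 lie above 0 in all 9 classes of control muscle.

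The control difference in the inducible proteasome was seen in every class that could be measured. Psmb8 was higher in the old library in 9 of 9 classes, with log2 ratios of 0.23 to 1.37 (median 0.73) and an interval above 0 in 7 of them. In neutrophils it was 179 CPM in old and 69.1 CPM in young control, in classical monocytes 411 CPM in old and 224 CPM in young, and in type 2 innate lymphoid cells 184 CPM in old and 101 CPM in young. T cells had 391 CPM in old and 265 CPM in young, B cells 260 CPM in old and 189 CPM in young, and NK cells 394 CPM in old and 337 CPM in young. Psmb9 (0.12 to 1.51), Tap2 (0.37 to 1.12) and Tapbp (0.12 to 1.01) were above 0 in 9 of 9 classes too, with an interval above 0 in 5, 3 and 3 of them. Tap1 was above 0 in 8 of 9 (-0.58 to 1.57), and Nlrc5 in 5 of the 5 classes with enough UMIs. B2m (-0.35 to 0.40, above 0 in 3 of 9), H2-K1 (-0.18 to 0.23, 6 of 9) and H2-D1 (-0.25 to 0.27, 7 of 9) fell on either side of 0. The classes share the same 2 libraries, so they are not replicates of the age comparison, and all-gene medians in these pairs ran from -0.01 to 0.19.

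Set against all genes, the count of members higher in old control was well above the background in some classes and near it in others. It was 6 of 9 measured in neutrophils (background 31.2%) and 6 of 9 in non-classical monocytes (36.6%). It was 5 of 10 in classical monocytes (40%) and 5 of 9 in B cells (35.5%). T cells (41.2%), NK cells (30.4%) and type 2 innate lymphoid cells (27.6%) had 4 of 10 each, and type 2 dendritic cells (27.4%) had 4 of 9. Hspa1a was higher in the young control library in each of these 9 classes, for example 118 CPM in old and 977 CPM in young T cells, 120 CPM in old and 789 CPM in young neutrophils, and 42 CPM in old and 1834 CPM in young type 2 innate lymphoid cells. Its part in the ratios of the members was not tested.

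T cells were on the other side of 0 after reload, but so was the median of all genes. This difference between treatments was not tested. In reload muscle 6 of 10 members met the rule as lower in old T cells (73 old and 52 young cells), against 43.9% of all genes. Their median was -0.36 against -0.23 over all genes, so the members lay near the shift of genes in general. Psmb8 was 336 CPM in old and 552 CPM in young reload T cells (-0.72, -1.15 to -0.28). Tap2 was 99.9 CPM in old and 184 CPM in young (-0.88, -1.69 to -0.09). The heavy chains were lower too, with H2-K1 at 2850 CPM in old and 3710 CPM in young (-0.38, -0.53 to -0.23) and H2-D1 at 2906 CPM in old and 3699 CPM in young (-0.35, -0.50 to -0.19). Over the 7 classes measured after reload, H2-D1 was lower in old in all 7 (-0.35 to -0.01), with an interval below 0 in 4, while B2m was higher in old in 6 of 7. All-gene medians in these pairs ran from -0.23 to 0.01. Neutrophils of HU muscle stood apart, with B2m at 1231 CPM in old and 655 CPM in young (0.91, 0.54 to 1.29), H2-D1 at 2719 CPM in old and 1516 CPM in young (0.84, 0.60 to 1.09) and H2-K1 at 503 CPM in old and 262 CPM in young (0.94, 0.35 to 1.56). The young HU neutrophils were 89 cells. Hspa1a was 30.2 CPM in old and 1917 CPM in young HU neutrophils, and its part in these ratios was not tested. All-gene medians in the HU pairs of old and young ran from -0.14 to 0.20.

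**Figure D5:**
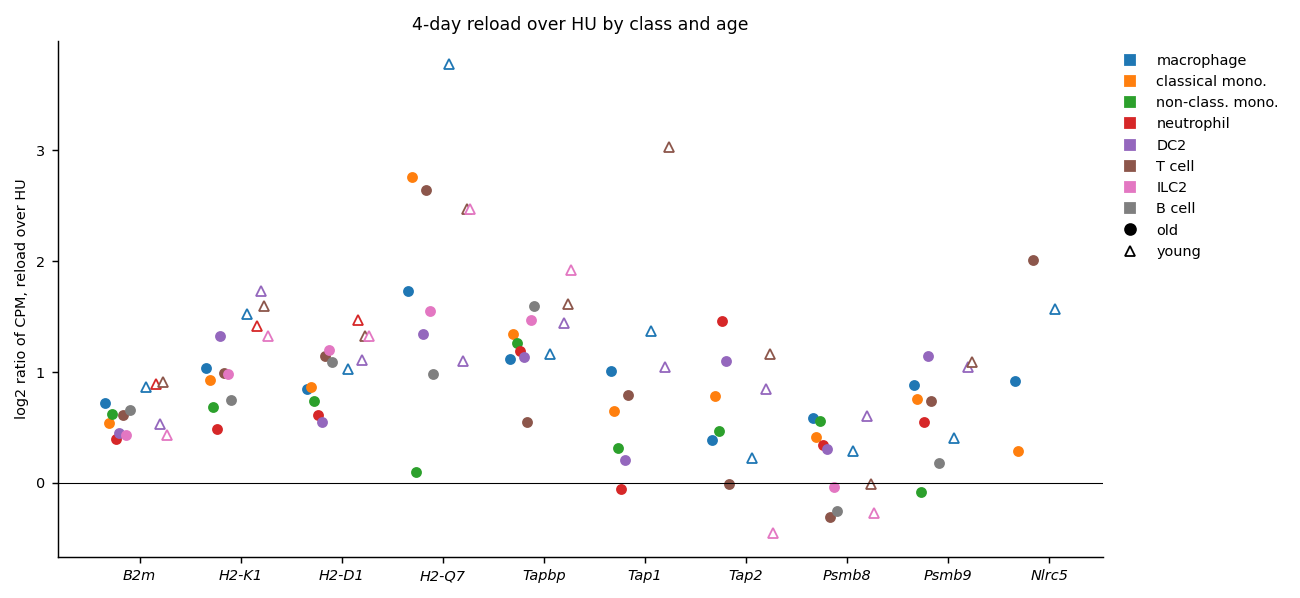
Log2 ratio of CPM in 4-day reload over HU muscle for each member, 1 point per class, with filled circles for old and open triangles for young mice. B2m, H2-K1, H2-D1, H2-Q7 and Tapbp lie above 0 in every class and age drawn, while Psmb8 lies on either side of 0, and the young T cell point of Tap1 rests on 1 UMI in HU.

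Reloading was accompanied by higher levels of the heavy chains and of their loading genes. Reload and HU libraries shared a sequencing run by their labels, but the library numbers in those labels differ with treatment, so any batch of preparation and the treatment cannot be told apart. The macrophage values are those given above by treatment. H2-K1 was higher after reload by a log2 ratio of 1.04 in old and 1.52 in young macrophages, H2-D1 by 0.85 in old and 1.03 in young, and B2m by 0.72 in old and 0.87 in young. Tapbp (1.11 in old, 1.16 in young) and Tap1 (1.01 in old, 1.37 in young) shifted by similar amounts. The least shift was in Tap2 (0.39 in old, 0.22 in young) and Psmb8 (0.58 in old, 0.29 in young). By the rule of size 10 of 10 members were higher in old macrophages, against 34.1% of all genes, and 8 of 10 in young, against 32.6%.

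In the edgeR fit over the 6 macrophage sums, with age as a block, 5 of 10 members rose in reload against HU, while 3.83% of the 9940 genes rose. They were H2-K1 (log2 fold change 1.32, SE 0.23, adjusted p = 0.031), Tapbp (1.18, SE 0.21, adjusted p = 0.033), H2-Q7 (2.50, SE 0.46, adjusted p = 0.035), H2-D1 (0.98, SE 0.20, adjusted p = 0.040) and Tap1 (1.25, SE 0.27, adjusted p = 0.044). Values of the reload pools lay above those of the HU pools for all 5, with no overlap. B2m (0.84, SE 0.20, adjusted p = 0.052) and Nlrc5 (1.20, SE 0.32, adjusted p = 0.066) missed the threshold of 0.05. Without the macrophages of the heat-shock cluster Tap1 did not pass (adjusted p = 0.051), nor did it when age was not a term of the edgeR fit (adjusted p = 0.088), and the other 4 passed in both. Psmb9 (0.67, adjusted p = 0.14), Psmb8 (0.47, adjusted p = 0.24) and Tap2 (0.35, adjusted p = 0.29) did not pass either. The make-up of the macrophages differed between these libraries. The cluster led by Fcna and Lyve1 held 132 old and 51 young reload macrophages, against 347 old and 381 young HU macrophages, and a cluster led by Il10 held 477 old and 694 young reload macrophages, against 37 old and 0 young HU macrophages. Within the Fcna and Lyve1 cluster the members' median log2 ratio of reload over HU was 0.70 in old and 1.10 in young mice (all genes 0.18 and 0.02), and within the Cx3cr1 cluster 0.72 in old and 0.59 in young (all genes 0.14 at both ages).

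The same direction was seen in every other class measured for H2-K1, H2-D1, B2m and Tapbp, and in most for Psmb9. H2-K1 was higher after reload in 8 of 8 classes of old mice (0.49 to 1.33) and 5 of 5 classes of young mice (1.33 to 1.73). H2-D1 (0.55 to 1.20 in old, 1.03 to 1.47 in young) and B2m (0.39 to 0.72 in old, 0.43 to 0.91 in young) were higher in the same number of classes. Tapbp was higher in 8 of 8 in old (0.55 to 1.60) and in 4 of 4 measured in young (1.16 to 1.92). Of the inducible proteasome subunits, Psmb9 was higher in 6 of 7 measured in old (-0.085 to 1.14) and in 3 of 3 in young (0.40 to 1.09). Psmb8 was higher in 5 of 8 in old (-0.31 to 0.58) and in 2 of 4 measured in young (-0.27 to 0.60). All-gene medians ran from 0.01 to 0.18 in old and from -0.09 to 0.31 in young. In type 2 dendritic cells edgeR called H2-K1 (1.35, SE 0.19, adjusted p = 0.0026), Tapbp (1.11, SE 0.27, adjusted p = 0.028) and H2-D1 (0.65, SE 0.17, adjusted p = 0.039) higher in reload, with 4.35% of genes. In neutrophils 0 of the 8 members tested were called, with 0.113% of genes. HU was set beside control for description only, because run and treatment cannot be told apart there: H2-K1 was lower in HU in all 8 classes of old mice (-1.43 to -0.62) and all 5 of young (-1.53 to -0.93).

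In reload muscle, macrophages that carried interferon-response transcripts had higher levels of the members, most of all of Nlrc5, Tap1 and Psmb9. After each cell was thinned to 2000 UMIs, cells with at least 3 of 10 interferon type I genes (none of them a member) made up 3.31% of old and 0.849% of young control macrophages (10 and 4 cells), 2.71% of old and 2.40% of young HU macrophages, and 11.6% of old and 9.02% of young reload macrophages (127 and 108 cells). These are shares of the cells with at least 2000 UMIs, which left out 32 old and 28 young control, 134 old and 153 young HU, and 111 old and 117 young reload macrophages. Without thinning, over all macrophages, the shares were 8.68% of old and 2.0% of young control, 7.97% of old and 4.56% of young HU, and 26.4% of old and 25.1% of young reload cells. Only the reload libraries had enough such cells to compare. Nlrc5 was higher in them than in the other macrophages by a log2 ratio of 1.94 in old and 1.96 in young, Tap1 by 1.69 in old and 1.74 in young, and Psmb9 by 1.06 in old and 1.36 in young. Psmb8 (0.98 in old, 0.95 in young), Tapbp (0.92 in old, 1.04 in young) and Tap2 (0.95 in old, 0.69 in young) lay lower. B2m (0.44 in old, 0.67 in young), H2-K1 (0.25 in old, 0.72 in young) and H2-D1 (0.28 in old, 0.46 in young) had the lowest means over both libraries. H2-Q7 was at 0.54 in old and 1.24 in young. The members' median was 0.94 in old and 1.0 in young, against -0.08 and -0.02 over all genes. Other class I heavy chains spread widely, with means over both libraries from -0.94 for Cd1d1 to 2.50 for H2-T24. H2-T22 was at 1.62, H2-T23 at 0.97, Fcgrt at -0.058 and Hfe at -0.24. Among class II genes the means over both libraries ran from -0.51 for H2-DMb2 to 0.25 for H2-Oa, with Cd74, the invariant chain, at -0.11. The constitutive proteasome subunits averaged -0.073 for Psmb5, 0.081 for Psmb6 and 0.36 for Psmb7, the last close to H2-D1 at 0.37. With 2 libraries no exact permutation test can go below p = 0.5, so these are values only. The cut is a point on a range: 48 old and 52 young reload macrophages sat exactly at it, and 120 old and 116 young sat 1 gene below.

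Related genes in old against young control macrophages showed how far the pattern reached. Of other class I heavy chains 4 of 8 measured met the rule as higher and 0 as lower (median 0.44), with the most for H2-T22 (68.9 CPM in old, 33.9 CPM in young, 1.02) and the least for H2-Q6 (62.0 CPM in old, 61.7 CPM in young, 0.01). H2-T23, a ligand of NK cell receptors, was 207 CPM in old and 135 CPM in young (0.62), and Fcgrt, the neonatal Fc receptor, 374 CPM in old and 206 CPM in young (0.86). Inducible proteasome partners had 2 of 4 higher (median 0.37), namely Psmb10, the remaining inducible subunit, at 87.4 CPM in old and 58.6 CPM in young (0.58), and Psme2, of the proteasome activator, at 199 CPM in old and 144 CPM in young (0.47). The constitutive catalytic subunits Psmb5 (-0.20), Psmb6 (-0.19) and Psmb7 (-0.10), which the inducible ones replace, had 0 of 3 in either direction. Peptide loading and trimming genes had 1 higher and 2 lower of 10 (median -0.11), with Hspa5, an endoplasmic reticulum chaperone, lowest at 663 CPM in old and 915 CPM in young (-0.47).

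Class II genes had 5 of 11 higher (median 0.29), led by Ciita, the class II transactivator, at 15.1 CPM in old and 7.94 CPM in young (0.93), while H2-Ab1 (-0.08) and Cd74 (0.04) were near 0. Regulators of class I transcription had 4 higher and 1 lower of 11 (median 0.24), with Rfxank, a subunit of the RFX complex that binds MHC promoters, lowest (-0.44). Interferon ligands and receptors had 0 higher and 1 lower of 6 measured (median -0.12). Type I interferon response genes had 9 of 9 measured higher (median 1.83). Ifit1 was 41.5 CPM in old and 5.61 CPM in young (2.89), Irf7 99.6 CPM in old and 13.6 CPM in young (2.88), and Isg15 238 CPM in old and 66.8 CPM in young (1.83). Interferon gamma response genes had 7 of 8 higher (median 0.74), from Cxcl9, a chemokine, at 54.7 CPM in old and 2.34 CPM in young (4.55) to Cd274, which encodes the checkpoint ligand PD-L1, at -0.30. Receptors that read class I had 1 higher (Pirb, 0.46) and 1 lower (Klrd1, -0.74) of 3 measured. The background of 26.5% higher holds for all of these counts.

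The interferon lists were also counted in the other treatments. In HU macrophages 4 type I genes met the rule as higher in old and 2 as lower of 9 (median 0.31), and 4 and 2 of 8 interferon gamma genes (median 0.32). After reload, 7 and 1 of 10 type I genes (median 0.53) and 8 and 0 of 9 interferon gamma genes (median 0.65) did so. Over all genes the shares were 23.3% higher and 38.0% lower in HU and 17.8% higher after reload. Single genes did not all keep their direction: Irf7 was 176 CPM in old and 264 CPM in young reload macrophages (-0.58, -0.67 to -0.50), below 0 there and above it in control and HU. In reload against HU, edgeR called 3 of 10 type I genes higher in macrophages: Mx1 (log2 fold change 1.95), Rsad2 (2.85) and Usp18 (1.34). Calr, a chaperone of class I loading (1.27, adjusted p = 0.033), Nfkb1 (1.91, adjusted p = 0.042) and H2-Ab1 (0.83, adjusted p = 0.047) rose as well. None of the other class I heavy chains (0 of 10), inducible partners (0 of 4) or constitutive subunits (0 of 3) passed.

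Across 38 sums of a class in a library, each with at least 50 cells, the members were not equally alike. Log2(CPM + 10) of H2-K1 correlated with that of H2-Q7 at r = 0.94 and with B2m at r = 0.86, and Tap1 with Psmb9 at 0.84 and with Psmb8 at 0.81. The lowest values were those of Psmb9 with H2-Q7 (-0.039), H2-K1 (0.046) and B2m (0.059), while others between chains and peptide supply were intermediate, such as H2-K1 with Psmb8 (0.40), H2-D1 with Tap1 (0.48) and H2-D1 with Tapbp (0.56). The 5 other genes of 2820 most like the mean of the members were Tma7 (r = 0.85), Brd2 (0.83), Raly (0.78), Sp100 (0.76) and Cnot1 (0.76). The 4 peptide supply genes Psmb8, Psmb9, Tap1 and Tap2, grouped after these values were seen, were most like Psme1 (0.85) and Psme2 (0.83), which encode the proteasome activator, and Ifi35 (0.80). The sums share libraries, depth and the same classes, so these correlations are descriptions with no test.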

How the data were processed

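The authors deposited UMI counts per gene and barcode for each of the 6 libraries, made with 10x 3′ v3 chemistry, Cell Ranger 3.1.0 and mm10; each library was 1 pool. Counts taken at the 3′ end are not scaled for length, so levels of different genes were not compared. Barcodes with under 200 genes or over 10% mitochondrial UMIs were left out, as were 340 barcodes marked as doublets (Scrublet scores). A cell was given to the class with the most of its 8 markers detected, if at least 3 and at least 2 more than any other of 20 classes, so classes are rebuilt and can differ from those of the study. Clusters came from scanpy 1.11.5. UMIs were summed per class and library for classes with at least 20 cells. Intervals of ratios are conditional binomial, and no p-value was made from cells. Sums of classes with at least 30 cells in all 6 libraries were fitted with edgeR 4.0.16 (TMM, filterByExpr, quasi-likelihood, treatment and age as terms, adjusted p under 0.05), with DESeq2 1.42.0 as an alternative. The scripts were tested on simulated data. All members were named; of each other list, the genes with the highest and lowest ratio and the 2 with most UMIs were eligible, and by likeness the 5 top genes. Psmb10, Psme2, Cd74, the genes named beside the interferon-response macrophages and the genes called in reload over HU were also named after their values were seen. Members and lists were chosen with earlier results of these data known. The alternatives were other scalings, thinning to 2000 UMIs, no filter, clusters in place of the marker gate, single clusters, cells without the heat-shock cluster, and leaving out each treatment. A result of the list of regulators is not reported here.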

Additional observations from a re-analysis of the deposited data

Results flagged for a closer look

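In 4 cases the old over young log2 ratio of a member lay on opposite sides of 0 in different treatments, meeting the rule of size in both. Both counting intervals were also away from 0. Macrophage H2-K1 and H2-D1 (control and reload) and Psmb8 (control and HU) changed side with intervals away from 0 too, but missed that size. These differences were not tested, since each treatment had a single old and a single young pool. In macrophages Psmb9 was at 0.71 in control and -0.37 in HU muscle. Within clusters of HU macrophages it was at -0.43 (Fcna and Lyve1) and 0.25 (Cx3cr1), and both of these intervals held 0. In T cells Tap2 was at 1.02 in control and -0.88 after reload, and Psmb8 at 0.56 in control and -0.72 after reload. In type 2 innate lymphoid cells Tap2 was at 1.12 in control and -2.05 in HU muscle, where HU had 7 UMIs in old and 13 UMIs in young cells.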

How the results depend on the processing

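The members' median old over young log2 ratio in macrophages was recomputed under each alternative. Comparing mean UMIs per cell with no depth scaling gave -0.011 in control muscle (all genes -0.42), 0.52 in HU (all genes 0.23) and -0.18 after reload. In each treatment this shifts every gene by the same amount, members and others alike. The reload median was 0.15 after thinning to 2000 UMIs and -0.25 within the Fcna and Lyve1 cluster, which was chosen after seeing the data, as was leaving out the heat-shock cluster. Members that changed sign through the shift common to all genes included B2m (-0.081), Tapbp (-0.075) and H2-Q7 (-0.026) in control and Psmb9 in HU (0.0026). Scaling by TMM moved the median of all genes to -0.05 in control, against 0.06, and to 0.01 in HU, against -0.14. Age called 0 members under every edgeR alternative and DESeq2, though 44 genes passed with no filter, 4 with DESeq2 and 5 without the reload libraries. Reload over HU called 4 to 7 members, with 7 when no filter was used and 4 without the heat-shock cluster, where Tap1 was lost (adjusted p = 0.051). The genes called numbered 771, against 2081 with no filter and 1069 without age as a term. Depth limits Nlrc5 and Tap1 outside macrophages, where many pairs held under 20 UMIs. Old and young pools were paired by treatment in the edgeR model itself, and replicate numbers pair nothing else, since every group was a single library.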
